A study of Mus musculus with 6 samples.

Results

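The regulators of G protein signalling described here are the 10 Rgs genes Rgs2, Rgs3, Rgs4, Rgs5, Rgs6, Rgs10, Rgs12, Rgs16, Rgs18 and Rgs19, of which 9 were measured among 19938 genes in mouse lung buds at E11.5. They were taken as a given list and read through the brightest probe set (called a probe here) that the platform annotation ties to 1 gene. Rgs10 had no such probe and was not analysed here. The list was drawn up with the difference between the groups in view, so the differences of its members are descriptions and carry no test.

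In the 3 DKO samples Shhcre was combined with Hdac1 fl/fl and Hdac2 fl/fl, conditional alleles that Cre deletes, and in the 3 control samples Shhcre was present without them. Both groups were E11.5 lung buds on a mixed background of C57BL/6 with 129X1 and 129S1, and both carried Shhcre, which makes Cre recombinase from the Sonic hedgehog locus and so acts in the lung epithelium and not in the mesenchyme, vessels or blood of the bud. The labels call the arrays biological replicates but do not give the number of embryos behind each, so the error terms describe the spread between these samples only. Values are log2 levels, on which a difference of 1 is a doubling, and the medians of the 6 arrays lay between 7.87 and 7.89. The lung determinant Nkx2-1 stood between 10.20 and 10.44 in DKO buds and between 10.53 and 10.60 in control buds, and the lung mesenchyme factor Tbx4 between 11.36 and 11.41 in DKO buds and between 11.37 and 11.42 in control buds. Hdac1 differed by -0.28 (SE 0.05, limma adjusted p = 0.0193), a call kept only without DKO 2 when single arrays were left out (highest adjusted p = 0.112) and lost with the replicate number as a block (0.0507), and Hdac2 by -0.04 (SE 0.06, adjusted p = 0.845). Where these probes sit relative to the floxed segments is not known here, so they do not test the deletion.

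G protein-coupled receptors act by loading the alpha subunit of a heterotrimeric G protein with GTP, which frees the alpha and the beta-gamma subunits to act on enzymes and ion channels. RGS proteins bind the active alpha subunit through a conserved domain and speed up its hydrolysis of GTP, and so shorten the signal. The family is divided by sequence into the small R4 proteins, the R7 proteins that pair with the beta subunit Gnb5, the R12 proteins and the RZ proteins. Rgs2, Rgs3, Rgs4, Rgs5, Rgs16 and Rgs18 belong to R4, Rgs6 to R7, Rgs10 and Rgs12 to R12, and Rgs19 to RZ.

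The sequences just before the starts of Rgs4, Rgs5 and Rgs2 are shown because Rgs4 and Rgs5 had the lowest values relative to control and lie next to each other, and because Rgs2 differed the other way. They are the 250 bases before the start in the RefSeq table of build GRCm38.p6, and each is written 5′ to 3′ along its gene's own strand. Windows were at hand for 9 of the 10 members, with Rgs10 among them. Rgs18, the member with the largest rise, had none. The Rgs4 window is chr1:169747643-169747892 on the minus strand, the Rgs5 window chr1:169655251-169655500 on the plus strand, and the Rgs2 window chr1:144004150-144004399 on the minus strand. Capitals mark matches on either strand to 4 motifs. The TATA box was searched as TATAAA. The box named CCAAT was searched by those letters and reads ATTGG on the other strand. The GC box was searched as GGGCGG and reads CCGCCC on the other strand. The core of a cyclic AMP response element was searched as TGACG and reads CGTCA on the other strand. No matches of different motifs share letters in these windows.
Rgs4: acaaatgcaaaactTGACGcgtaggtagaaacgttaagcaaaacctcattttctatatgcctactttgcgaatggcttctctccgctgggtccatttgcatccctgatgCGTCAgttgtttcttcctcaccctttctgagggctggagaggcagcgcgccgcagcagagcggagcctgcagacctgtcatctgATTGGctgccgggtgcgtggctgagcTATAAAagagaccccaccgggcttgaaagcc
Rgs5: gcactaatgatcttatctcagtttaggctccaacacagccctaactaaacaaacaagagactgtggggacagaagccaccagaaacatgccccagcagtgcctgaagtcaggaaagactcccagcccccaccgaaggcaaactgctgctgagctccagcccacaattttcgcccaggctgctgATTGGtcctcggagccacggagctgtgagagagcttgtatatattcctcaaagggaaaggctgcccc
Rgs2: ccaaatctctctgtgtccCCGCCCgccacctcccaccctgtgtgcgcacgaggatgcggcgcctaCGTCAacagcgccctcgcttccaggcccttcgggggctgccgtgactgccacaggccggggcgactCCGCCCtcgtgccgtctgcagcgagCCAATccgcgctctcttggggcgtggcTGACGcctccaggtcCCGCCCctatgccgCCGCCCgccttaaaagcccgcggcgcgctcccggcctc
Both Rgs4 and Rgs5 held a CCAAT box in the reverse orientation close to the start, beginning 57 bases before it in Rgs4 and 67 bases before it in Rgs5. This was not particular to the pair, since the window of Rgs16, whose groups overlapped, held one in the same orientation 68 bases before its start. A CCAAT box in either orientation and at any position lay in 33.8% of the 32851 windows of this length in the table. Rgs4 also held a TATA box that begins 31 bases before its start, a motif found in 12.4% of all windows, and 2 copies of TGACG, found in 17.8%. Rgs5 held no exact match to the other motifs. The search for the TATA box took TATAAA alone, and the Rgs5 window holds the similar letters tatatatt close to the start, which it does not count. Rgs2 held 4 GC boxes (present in 32.7% of windows), 2 copies of TGACG and a CCAAT box in the forward orientation 94 bases before its start. The CG dinucleotide occurred 30 times in the Rgs2 window, 13 times in that of Rgs4 and 4 times in that of Rgs5, against a median of 6 and quartiles of 2 and 16 over all windows. These matches describe letters and not binding.

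Rgs4 and Rgs5 were the members with the largest differences, both about 2-fold lower in the DKO buds, while Rgs6 was lower by a smaller amount and Rgs18 and Rgs2 were higher. Rgs16, Rgs19, Rgs3 and Rgs12 had DKO and control values that overlapped. Of the 9 measured members, 5 passed limma's adjusted threshold of 0.05 over all genes, where 2.41% of all genes passed. Of these members 3 were lower and 2 higher in DKO, where 1.38% of all genes passed as lower and 1.03% as higher. The groups did not overlap for the same 5 members, 3 lower and 2 higher in DKO, against 18.8% of all genes in either direction (10.4% lower and 8.36% higher). The list was chosen on this contrast, and nothing is read from these counts. The median difference over the 9 members was -0.09, against 0.0003 over all genes. Without control 2, the count of 5 became 3.

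**Figure D1:**
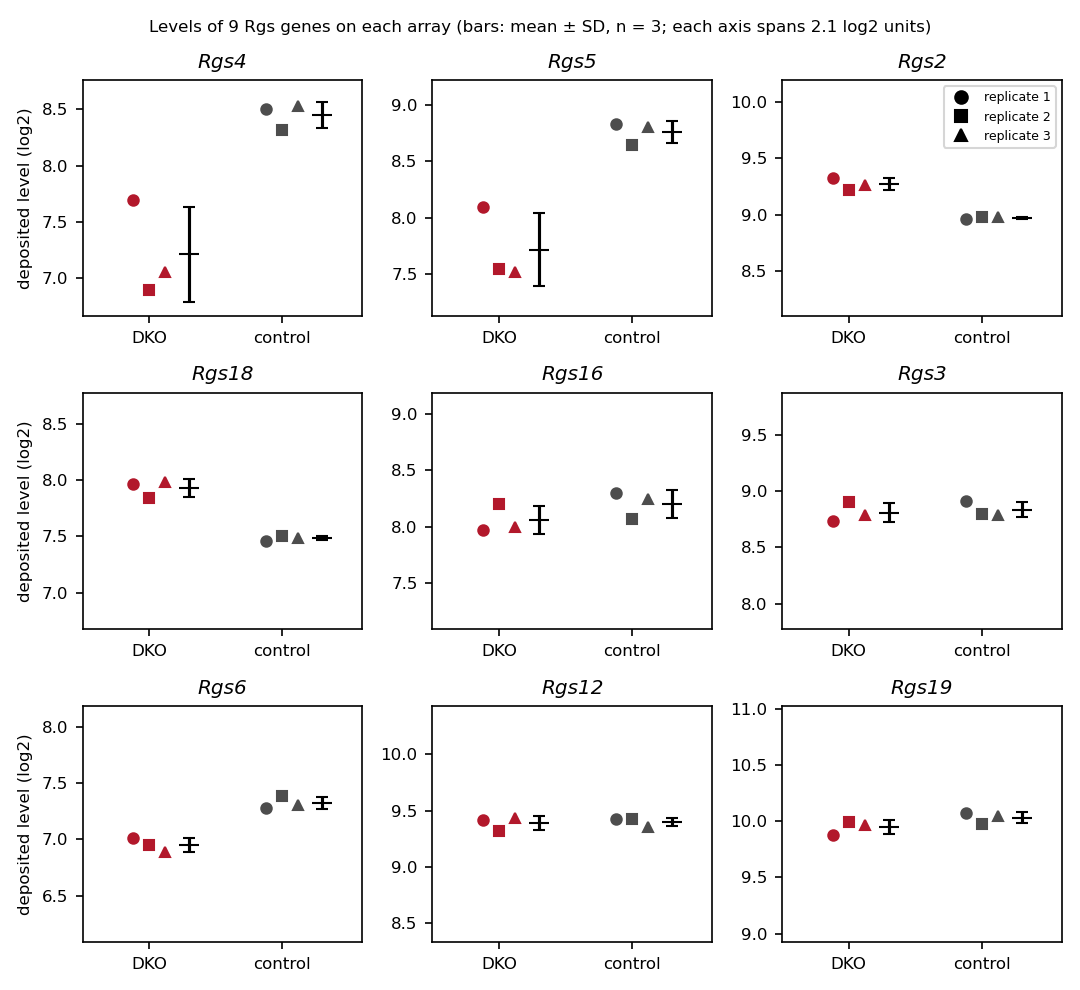
Deposited log2 level of 9 Rgs genes on each array, DKO left and control right, with the symbol giving the replicate number and bars the mean ± SD (n = 3); every panel spans the same 2.1 log2 units. The groups are apart for Rgs4, Rgs5, Rgs6, Rgs2 and Rgs18, and for Rgs4 and Rgs5 DKO 1 lies above the other DKO arrays.

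Rgs4, an R4 protein known from neurons and heart that acts on the Gi and Gq classes of alpha subunit, had log2 levels of 7.69, 6.90 and 7.05 in DKO 1, 2 and 3, against 8.51, 8.31 and 8.53 in control 1, 2 and 3. Every DKO value lay below every control value, and DKO 1 was the highest of the DKO arrays. The mean was 7.21 ± 0.42 in DKO and 8.45 ± 0.12 in control (SD, n = 3 each), a difference of -1.24 (SE 0.18), which is 2.35-fold lower. Among all genes, 6 had a lower difference than this. Leaving out each array in turn gave differences between -1.47 (without DKO 1) and -1.08 (without DKO 2).

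Rgs5, an R4 protein best known as a marker of pericytes and other mural cells of vessels, had log2 levels of 8.09, 7.54 and 7.52 in DKO 1, 2 and 3, against 8.83, 8.65 and 8.81 in control 1, 2 and 3. As for Rgs4, the groups were apart and DKO 1 was the highest DKO array. The mean was 7.72 ± 0.33 in DKO and 8.76 ± 0.10 in control (SD, n = 3 each), a difference of -1.05 (SE 0.14), or 2.06-fold lower. Leaving out single arrays gave -1.23 (without DKO 1) to -0.94 (without DKO 3).

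Rgs4 and Rgs5 also had like deviations within each group, a measure apart from the difference between the groups. The deviations of Rgs4 from its DKO mean were 0.48, -0.32 and -0.16 in DKO 1, 2 and 3, and those of Rgs5 were 0.38, -0.17 and -0.20. In control 1, 2 and 3 they were 0.06, -0.14 and 0.08 for Rgs4 and 0.07, -0.11 and 0.04 for Rgs5, so that DKO 1 was high and control 2 low for both genes. The scatter between DKO buds was wide. The DKO SD of Rgs4 exceeded that of 99.8% of all genes and that of Rgs5 exceeded 99.4%, where the median gene had an SD of 0.08 in DKO and 0.06 in control. With 3 arrays in each group this is a description.

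Over the 6 arrays, Rgs5 was the gene with the profile closest to that of Rgs4 among 17063 named genes, and Rgs4 the closest to that of Rgs5. The measure was the root mean square distance between log2 profiles after subtracting each gene's mean, and it was 0.121 for this pair. This distance includes the difference between the groups, on which the members were chosen, so only genes with a fall of like size could be close. Only 13 genes, Rgs4 and Rgs5 among them, fell at least as much as Rgs5, so the closeness of the pair is a description. The next closest to Rgs4 were the zinc finger gene Zfp979 (distance 0.257, difference -1.13) and the carboxylesterase gene Ces1d (distance 0.271, difference -1.18). After Rgs4, the closest to Rgs5 were the histone gene H3c15 (distance 0.186, difference -0.91) and Ces1d (distance 0.213).

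In the RefSeq annotation Rgs5 and Rgs4 are neighbours on chromosome 1, on opposite strands, with no measured gene between them. Their outer neighbours did not pass the test. Nuf2, a kinetochore gene on the far side of Rgs5, differed by -0.03 (SE 0.05, limma adjusted p = 0.872), and Ccdc190 on the far side of Rgs4 by -0.08 (SE 0.09, adjusted p = 0.811). Of the 16 nearest measured genes, 8 on each side, limma called 1, the collagen receptor gene Ddr2, named here after its value was seen (-0.33, SE 0.07, adjusted p = 0.0398, lost without DKO 3 or any control at 0.088 to 0.167, and with the replicate block at 0.0586). The other 15 lay between -0.09 and 0.20.

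**Figure D2:**
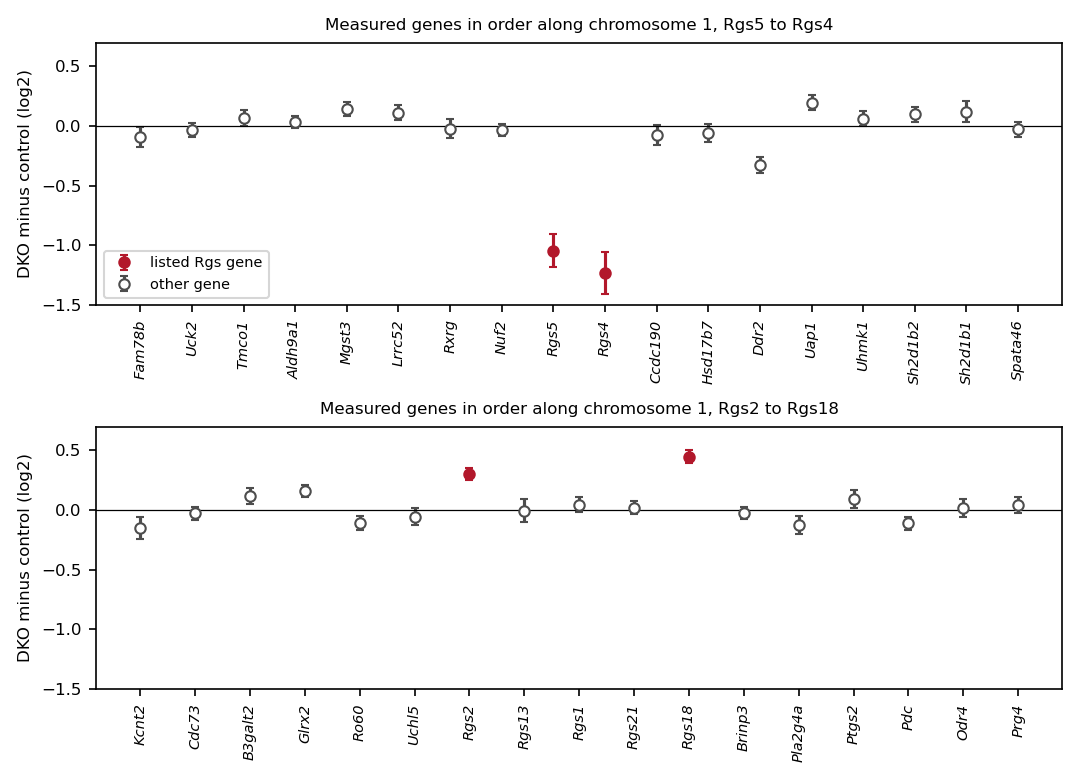
Difference between DKO and control (log2, bars the SE of the limma fit) for measured genes in their order along chromosome 1, around Rgs5 and Rgs4 (top) and around Rgs2 and Rgs18 (bottom); filled points are listed Rgs genes. Rgs5 at -1.05 and Rgs4 at -1.24 stand below their neighbours, which lie between -0.33 and 0.20, and Rgs2 and Rgs18 stand above theirs, which lie between -0.15 and 0.16.

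Rgs18, an R4 protein known mainly from megakaryocytes and platelets, had log2 levels of 7.96, 7.84 and 7.98 in DKO 1, 2 and 3, against 7.46, 7.50 and 7.49 in control 1, 2 and 3. All DKO values were above all control values, and the arrays of each group lay close together. The mean was 7.93 ± 0.08 in DKO and 7.48 ± 0.02 in control (SD, n = 3 each), a difference of 0.45 (SE 0.06), or 1.36-fold higher. It ranged from 0.42 to 0.49 when single arrays were left out.

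Rgs2, an R4 protein that acts chiefly on the Gq class and is known for restraining the contraction of vascular smooth muscle, had log2 levels of 9.33, 9.22 and 9.26 in DKO 1, 2 and 3, against 8.96, 8.98 and 8.98 in control 1, 2 and 3. Again the groups were apart, with a mean of 9.27 ± 0.05 in DKO and 8.97 ± 0.01 in control (SD, n = 3 each). The difference was 0.30 (SE 0.05), or 1.23-fold higher, and 0.27 to 0.32 when single arrays were left out. The control SD of Rgs2 was smaller than that of all but 1.64% of genes. Without DKO 3 or any of the controls Rgs2 was no longer among the genes past the threshold.

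Rgs2 and Rgs18 lie at the ends of a run of Rgs genes on chromosome 1, with Rgs13, Rgs1 and Rgs21 between them. Those 3 differed by -0.01 (SE 0.10), 0.04 (SE 0.06) and 0.02 (SE 0.06), with limma adjusted p of 0.988, 0.866 and 0.943. Their mean levels lay low, at 4.52, 4.99 and 4.91 in DKO and 4.52, 4.94 and 4.89 in control for Rgs13, Rgs1 and Rgs21, under the array medians, and no detection call was at hand. On the outer sides, Uchl5 next to Rgs2 stood at -0.06 (adjusted p = 0.845) and Brinp3 next to Rgs18 at -0.03 (adjusted p = 0.913). Of 15 measured genes within and around the run, limma called 0.

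Rgs6, an R7 protein that in the heart shortens signals of the muscarinic receptor Chrm2, had log2 levels of 7.01, 6.95 and 6.89 in DKO 1, 2 and 3, against 7.28, 7.38 and 7.31 in control 1, 2 and 3. The groups were apart, with a mean of 6.95 ± 0.06 in DKO and 7.32 ± 0.05 in control (SD, n = 3 each). The difference was -0.38 (SE 0.06), or 1.30-fold lower, and -0.41 to -0.34 when single arrays were left out. Without control 2, Rgs6 was no longer among the genes past the threshold. Its neighbours on chromosome 12, Sipa1l1 (-0.11, limma adjusted p = 0.420) and Dpf3 (0.20, adjusted p = 0.126), did not pass.

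The other 4 members did not separate the groups. Rgs16, an R4 protein induced by many stimuli, had 7.97, 8.20 and 7.998 in DKO 1, 2 and 3, against 8.30, 8.07 and 8.24 in control 1, 2 and 3, with 1 DKO array inside the control range and a difference of -0.15 (SE 0.08). Its neighbour Rgs8 stood at -0.04 (limma adjusted p = 0.895). Rgs19, an RZ protein that acts on the Gi class, had 9.87, 9.99 and 9.96 in DKO, against 10.07, 9.98 and 10.05 in control, a difference of -0.09 (SE 0.06).

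Rgs3, an R4 gene with long and short isoforms, had 8.73, 8.90 and 8.79 in DKO, against 8.91, 8.80 and 8.79 in control, a difference of -0.03 (SE 0.06). A further Rgs3 probe gave -0.04. Rgs12, a large R12 protein with several further domains, had 9.42, 9.32 and 9.43 in DKO, against 9.42, 9.42 and 9.35 in control, a difference of -0.01 (SE 0.05). For Rgs3 and Rgs12 the sign changed with the array left out, between -0.07 and 0.01 for Rgs3 and between -0.03 and 0.03 for Rgs12. The measured neighbours did not pass limma's test, with Pole3 at -0.07 and Zfp618 at 0.06 beside Rgs3, Msantd1 at 0.17 and Hgfac at 0.02 beside Rgs12, and Tcea2 at -0.12 and Lkaaear1 at 0.10 beside Rgs19. Of all members, 2 had differences above 0 and 7 below.

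Outside the listed members, the Rgs family showed no called change. The members were listed with this contrast known, so the absence of calls among the remaining genes is a description. Of 14 other family genes, all measured, limma called 0, with 1 at an unadjusted p under 0.05 and 1 called with array weights, and their median difference was 0.03. For this and the later lists, 2.41% of all genes passed the adjusted threshold. The share of all genes at an unadjusted p under 0.05 is not given here, so nothing is read from counts at that cut-off. The values farthest from 0 were 0.20 for Rgs17, an RZ protein (SE 0.08, adjusted p = 0.302), -0.15 for Rgs11, an R7 protein (SE 0.09, adjusted p = 0.562) and 0.11 for Rgsl1 (SE 0.06, adjusted p = 0.483). The other R7 proteins next to Rgs6 were Rgs7 at 0.06 and Rgs9 at -0.07, and their membrane anchor Rgs7bp stood at -0.0008. The R12 protein Rgs14 stood at 0.05 and the RZ protein Rgs20 at 0.04.

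**Figure D3:**
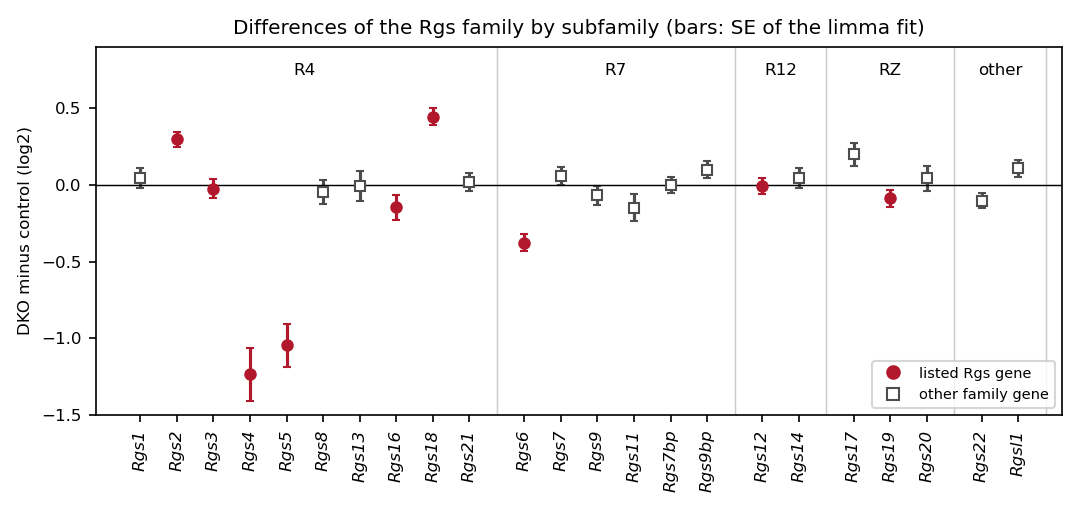
Difference between DKO and control (log2) for 23 genes of the Rgs family, grouped by subfamily, with filled circles for listed members, open squares for other family genes and bars for the SE of the limma fit; the binding partners Rgs7bp and Rgs9bp are drawn with R7. Rgs4 and Rgs5 lie near -1, Rgs6 at -0.38, Rgs2 and Rgs18 at 0.30 and 0.45, and the open squares lie between -0.15 and 0.20.

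Of the G proteins that RGS proteins act on, 1 alpha subunit fell. Gnai1, an inhibitory alpha subunit, had log2 levels of 9.51, 9.62 and 9.70 in DKO 1, 2 and 3, against 9.91, 9.96 and 9.97 in control 1, 2 and 3. It fell by 0.34 (SE 0.06, limma adjusted p = 0.0217), a call lost without any of the controls (adjusted p = 0.0793 to 0.111). It was the only one called of 15 measured alpha subunits of 16 listed, with 0 rising and a median of -0.01. The related Gnai2 stood at -0.03 and Gnai3 at -0.08, and the Gq subunit Gnaq at 0.03.

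Of 17 beta and gamma subunits limma called 0, with 2 at an unadjusted p under 0.05 and a median of 0.03. The values farthest from 0 were -0.20 for Gng8, -0.16 for Gng3 and 0.15 for Gnb3 (adjusted p = 0.234, 0.591 and 0.274), and Gnb5, the partner of Rgs6, stood at -0.04. Of 18 effectors (adenylyl cyclases, phospholipases, a kinase and channel subunits) limma called 0, with 4 at an unadjusted p under 0.05, 2 called with array weights, 1 called without the dimmest 30% of genes, and a median of -0.015. The largest there were 0.25 for the potassium channel gene Kcnj5 (adjusted p = 0.277), -0.24 for the adenylyl cyclase Adcy7 (adjusted p = 0.0847) and -0.18 for Adcy8 (adjusted p = 0.341).

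Among 25 measured receptors of 30 listed that signal through Gq or Gi, 1 fell and 1 rose, and the median was 0.02. Of the 25, 8 had an unadjusted p under 0.05 in the limma fit. Cckar, a Gq-coupled receptor for cholecystokinin, had 7.51, 7.90 and 7.76 in DKO 1, 2 and 3, against 9.11, 9.22 and 9.26 in control 1, 2 and 3. It fell 2.78-fold (-1.47, SE 0.09, limma adjusted p = 0.000169) and remained called with any single array removed (highest adjusted p = 0.00234). Chrm2, the Gi-coupled muscarinic receptor of heart and smooth muscle, had 9.26, 9.12 and 9.16 in DKO, against 8.68, 8.81 and 8.89 in control. It rose 1.31-fold (0.39, SE 0.07, adjusted p = 0.0225), a call lost without DKO 1, DKO 3, control 1 or control 2 (adjusted p = 0.0614 to 0.0991) and with the replicate block (0.0567). The receptor count of 2 became 5 without DKO 2 and 1 without DKO 1, DKO 3, control 1 or control 2.

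Of 14 measured genes of 15 listed for other proteins with a domain like that of RGS proteins, Snx25, a sorting nexin, rose by 0.27 (SE 0.05, limma adjusted p = 0.0246) and 0 fell, with a list median of 0.01. That call was kept only without DKO 2 when single arrays were left out (adjusted p = 0.0609 to 0.13 without any other array), and was lost with the replicate block (0.0652). Of 13 other modulators of G proteins limma called 0, and 0 had an unadjusted p under 0.05 (median 0.01). The values farthest from 0 were -0.10 for the arrestin Arrb2, 0.09 for Ccdc88a and -0.08 for Ccdc88c (adjusted p = 0.484, 0.618 and 0.586).

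Markers of the cells in which Rgs4 and Rgs5 are known moved in different ways, and in whole buds fewer cells of a type and less RNA per cell cannot be told apart. Of 9 pericyte and mural cell markers limma called 0, and 0 had an unadjusted p under 0.05, with 8 of 9 values above 0 and a median of 0.07. Pdgfrb, the receptor that recruits pericytes, stood at 0.12 (SE 0.06, adjusted p = 0.522), Cspg4 at 0.12 (adjusted p = 0.466) and Anpep at -0.10 (adjusted p = 0.519). Their summed level, on the linear scale of the deposited values, was 5668 to 6265 in DKO and 5502 to 5649 in control. The lowest DKO sum was close to the highest control sum, and Pdgfrb was the brightest of these markers on every array. The part of pericytes in the difference of Rgs5 was not tested.

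Smooth muscle markers fell, 6 of 8 with 0 rising and a median of -0.44. Their summed level was 7423, 6688 and 6363 in DKO 1, 2 and 3, against 8881, 9820 and 9310 in control 1, 2 and 3. DKO 1 was the highest DKO array, as for Rgs4 and Rgs5 and also for the summed cardiac, endothelial and macrophage markers, and control 2 was the highest control array, where Rgs4 and Rgs5 had their lowest control values. The largest were the enteric actin gene Actg2 (-0.70, SE 0.11), calponin Cnn1 (-0.63, SE 0.09) and the myosin gene Myh11 (-0.60, SE 0.12), with limma adjusted p of 0.0148, 0.00917 and 0.0369. With control 2 or control 3 left out 0 of them were called, with control 1 left out 2, and 3 with DKO 3 left out or with the replicate block. Lung epithelium markers fell for 11 of 15 with 0 rising, a median of -0.56 and a summed level of 9685 to 10905 in DKO and 14795 to 16251 in control. The surfactant gene Sftpc (-2.37), the airway factor Sox2 (-1.17) and Rab25 (-0.89) were the largest. The part of either cell type in the differences of Rgs4, Rgs5 and Rgs6 was not tested.

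Beside Rgs18, markers of megakaryocytes and platelets rose for 2 of the 4 measured of 8 listed, with 0 falling and a median of 0.28. They were Ppbp (0.57, SE 0.07, limma adjusted p = 0.00513) and Pf4 (0.38, SE 0.05, adjusted p = 0.0078, and 0.0529 without control 2), 2 platelet chemokines, and Itga2b, the platelet integrin, stood at 0.17 (adjusted p = 0.363). The summed level was 4064, 4555 and 4494 in DKO 1, 2 and 3, against 3098, 3210 and 3311 in control 1, 2 and 3. The groups were apart as for Rgs18, but this was not particular to these markers. Summed levels were also higher in all DKO arrays for endothelial markers (8636 to 9774 against 8043 to 8295) and erythroid markers (18382 to 18699 against 16055 to 17984). The same held for mesothelial markers (4274 to 4494 against 3766 to 3876) and for the cardiac and pericyte lists. Of 8 macrophage and leukocyte markers limma called 0, with 4 at an unadjusted p under 0.05 and 4 called with array weights. Their median was -0.12, and Tyrobp (-0.30), Csf1r (-0.21) and Laptm5 (-0.21) were the largest. The part of platelet-lineage cells in the difference of Rgs18 was not tested.

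Rgs4 and Rgs6 are also known from neurons and heart. Of 8 neural crest and neuronal markers measured of 11 listed, Chga, a granin of endocrine and nerve cells, rose (0.44, SE 0.06, limma adjusted p = 0.00796) and Erbb3, which is also made in epithelia, fell (-0.88, SE 0.09, adjusted p = 0.00199). Snap25, of nerve endings, stood at 0.32 (adjusted p = 0.0509), and passed under 7 of the 14 alternatives. The list median was -0.01, and 4 neural markers were called with array weights, against 2. Of 7 cardiac muscle markers, the atrial myosin gene Myl7 rose (0.80, SE 0.08, adjusted p = 0.00163) and 0 fell, with a summed level of 3537 to 4458 in DKO and 2945 to 3213 in control. The cardiac count of 1 became 3 without DKO 2, 4 with array weights and 2 with an intensity trend. The part of nerve or heart cells in the differences of Rgs4 and Rgs6 was not tested.

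For the remaining lists, limma called 0 of 8 endothelial, 0 of 6 erythroid and 0 of 6 cartilage precursor markers, with 2, 2 and 3 at an unadjusted p under 0.05. With array weights 1, 2 and 3 of them were called. Their medians were 0.13, 0.10 and -0.01. As for the other lists, nothing is read from the counts at an unadjusted p under 0.05. Of 9 lung mesenchyme markers 2 rose, Fgf10 (1.05) and Meox2 (0.63), and 1 fell, Twist2 (-0.28, adjusted p = 0.0395). The Twist2 call was lost with the replicate block (0.0869) and without any single array other than DKO 2 (0.0505 to 0.186). Of 6 mesothelial markers 2 rose and 0 fell, a count that became 1 without DKO 3 or any of the controls. The lowest marker level was 5.63 on the log2 scale, in the pericyte list. The lowest level of any probe lay between 3.42 and 3.50 on the 6 arrays, and whether dim markers were detected could not be judged.

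**Figure D4:**
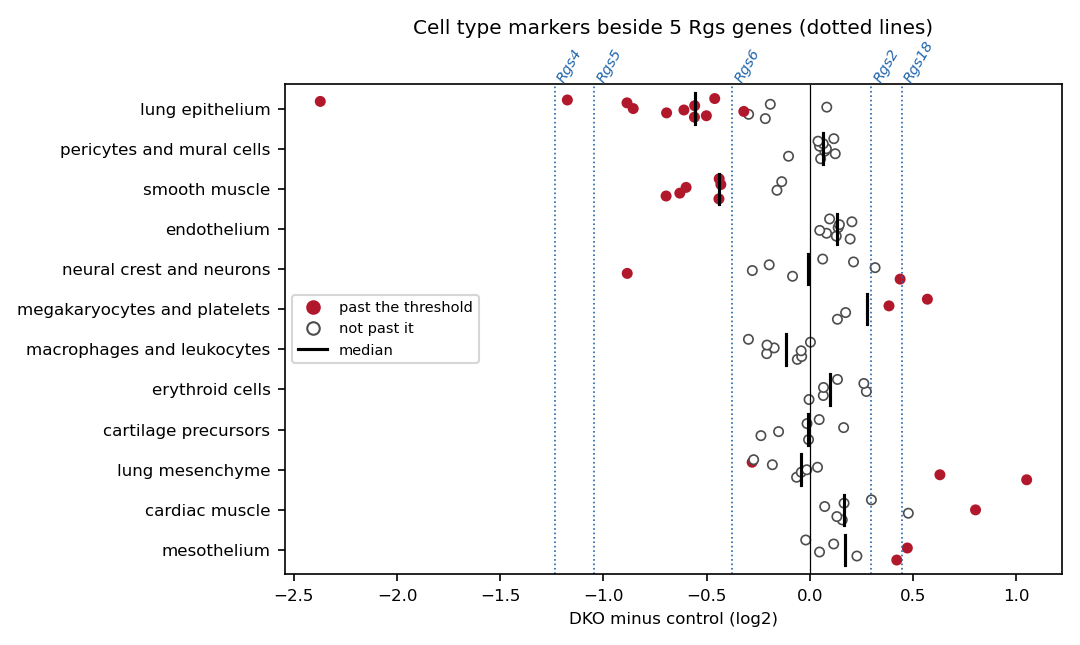
Difference between DKO and control (log2) for each marker of 12 cell type lists, with filled points for genes past limma's adjusted threshold, open points for the rest, a black bar at each list's median and dotted lines at 5 Rgs genes. The smooth muscle and epithelium lists have medians of -0.44 and -0.56, on the side of Rgs4, Rgs5 and Rgs6, the pericyte list has a median of 0.07, and the megakaryocyte list a median of 0.28 on the side of Rgs18.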

How the data were processed

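Lung bud RNA from 3 DKO and 3 control samples (100 ng each) was hybridised to MoGene 1.1 ST arrays, per the labels. The deposited values are log2 expression values, 1 per probe and array, made by the authors with oligo, RMA and limma, per the submitters' processing notes, which give no version. RMA makes the arrays' distributions alike, so a shift common to all genes cannot be seen. The log base is not stated and was taken from RMA. The number of arrays limits the precision, and no scanner file was read.

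Of 35556 probes, 21789 had 1 gene in the platform annotation, 1621 several and 12146 none here. Symbols were checked by Entrez identifier against RefSeq (GRCm38.p6), which matched 19856 of 19938 genes. The brightest probe stood for each gene. Groups came from the sample titles. All 19938 genes were fitted with lmFit and eBayes of limma 3.58.1 (R 4.3.3), two-sided and with group as the only term, with Benjamini-Hochberg adjustment over all of them and a threshold of 0.05. The fit was tested on simulated data with normal noise of each gene's SD. It recovered 48% of 1.25-fold changes, 85.2% of 1.5-fold changes and 97.6% of 2-fold changes. Changes of 1.25-fold or less can thus go uncalled.

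The members and gene lists were chosen with earlier results of these data known. Named genes were Hdac1, Hdac2, the members, the members of each list that passed with the largest change (up to 4) or otherwise the 3 values farthest from 0, the nearest measured neighbours, and the 3 genes closest in profile to Rgs4 and Rgs5. Other genes are named where they are kin or partners of a member. Predicted and clone names were left out. The alternatives tried were a block for replicate number, trend, robust and array weight settings, a second quantile normalization, median centring, leaving out the dimmest 30% of genes, the mean of all probes of a gene, and leaving out each array.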

Additional observations from a re-analysis of the deposited data

How the results depend on the processing

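All 126 recomputed member differences (9 members, 14 alternatives) moved by less than 1 SD between replicates, but most could not have done otherwise. Leaving out 1 of 3 arrays cannot move a difference that far. The replicate block, the trend and robust settings and leaving out the dimmest genes do not alter a difference at all. With single arrays left out, the number of genes past the threshold was between 197 and 811, against 481. Removing control 1, 2 or 3 gave 215, 197 and 215, removing DKO 2 gave 811, and removing DKO 3 gave 317. It was 725 with an intensity trend and 2003 with array weights. The number of Rgs members past it was 3 to 5, the alpha subunits 0 to 1, the proteins with an RGS-like domain 0 to 1 (0 with the replicate block) and the receptors 1 to 5 (5 with array weights). Array weights called 2 effectors and 1 other Rgs family gene (Rgs17), and 1 effector was called without the dimmest 30% of genes. The SD around the group mean over all genes was 0.105 for DKO 2, 0.087 for DKO 1 and 0.071 for DKO 3. It was 0.061, 0.064 and 0.060 for control 1, 2 and 3. The causes of the changed counts were not tested. The number of called macrophage markers became 1 without DKO 1, and of erythroid and cartilage markers 1 each without DKO 2.

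The labels do not say whether the same replicate numbers in both groups pair the samples. Deviations from the group means correlated at -0.0642, 0.0455 and 0.156 across genes for replicates 1, 2 and 3. Of the DKO arrays, DKO 3 alone correlated best with the control of its number. With 3 arrays in each group these values cannot settle whether the samples were paired. With the replicate block 406 genes passed, among them 5 Rgs members. Signal over background could not be judged without scanner files, which limits statements on dim probes such as those of Rgs1, Rgs13 and Rgs21.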
